A study of Mus musculus with 28 samples.

Results

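The regions described here are the H3K27ac peaks at the ends of ribosomal protein genes in mouse macrophages. A peak was a member if it lay within 1 kb of either end of an mm10 protein-coding gene whose symbol is Rpl or Rps followed by digits, with S6 kinase (Rps6k) and mitochondrial ribosomal protein (Mrp) genes left out. This gave 111 peaks of 63313 in all. They belong to 79 of the 87 genes that match the symbol rule, 47 of the large subunit (Rpl) and 32 of the small subunit (Rps). The rule itself uses gene names and positions.

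H3K27ac, acetylation of histone H3 at lysine 27, is a mark of active promoters and enhancers, measured here by chromatin immunoprecipitation and sequencing (ChIP-seq). The cells were primary macrophages grown from bone marrow of male C57BL/6 mice, 8 to 10 weeks of age, over 5 days in medium conditioned by L cells. There were 4 groups: vehicle, 500 nM Cort (corticosterone, which mice make as their own glucocorticoid), 100 nM Dex (dexamethasone, a man-made glucocorticoid) and 10 ng/ml IL4 (interleukin 4, which signals through STAT6). Treatment lasted 24 h, except that for vehicle the H3K27ac titles give no time. H3K27ac was measured in 3 libraries per group from chromatin fixed with formaldehyde. The glucocorticoid receptor (GR) was measured in 4 vehicle, 4 Cort, 4 Dex and 3 IL4 libraries from chromatin fixed with disuccinimidyl glutamate and formaldehyde, in batches 1 and 2, with every IL4 library in batch 2.

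H3K27ac counts in peaks ran from 6829787 to 15695771 per library. Of the 10 macrophage markers checked, 10 had a peak at a gene end, with a summed level of 2200 to 2460 normalised CPM (counts on a common library size) over the vehicle libraries, 2390 to 2740 with Cort, 2370 to 2650 with Dex and 2000 to 2260 with IL4. All 5 fibroblast markers and all 5 mast cell or basophil markers had none, and 2 of 5 neutrophil markers had one, at 6.8 to 11.7 CPM with vehicle, 11.4 to 19.3 with Cort, 12.6 to 22.5 with Dex and 9.89 to 17.5 with IL4. B cell markers (2 of 5 genes with a peak) summed to 140 to 190 CPM with vehicle, 110 to 138 with Cort, 97.1 to 121 with Dex and 93.5 to 130 with IL4. Of their 4 peaks 2 were lower with Dex, against 5.24% of all tested peaks called either way. Dendritic cell markers (2 of 5) summed to 204 to 296 CPM with vehicle, 193 to 264 with Cort, 184 to 248 with Dex and 171 to 230 with IL4. T cell markers (1 of 5) and erythroid markers (2 of 5) were at 11.7 to 14.1 and 7.06 to 8.76 CPM with vehicle. The osteoclast markers, several of which macrophages also use, summed to 802 to 951 CPM with vehicle and 933 to 1120 with Cort. They summed to 906 to 1130 with Dex and 1150 to 1320 with IL4. At the threshold used below, 1 of 13 macrophage peaks was higher with Cort (1.55% of all peaks called). With Dex 1 of 13 macrophage peaks was higher and 1 of 2 erythroid peaks lower. With IL4 (27.6% of all peaks called), 2 of 13 macrophage peaks were higher and 2 lower. Of 4 tested osteoclast peaks, IL4 raised 3 and lowered 1. It also lowered 1 of 4 B cell and 1 of 3 dendritic cell peaks. The part of these markers in the results below was not tested. Nothing says that libraries came from separate animals, and p-values then measure only the spread between libraries. In a bulk measurement, fewer acetylated cells and less acetylation per cell cannot be told apart.

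A cytosolic ribosome is built from ribosomal RNA and a fixed set of ribosomal proteins, which are made in matched amounts in nearly every cell. Their genes are among the most active in the genome and are widely used as reference genes. Many of their transcripts start with a C inside a short run of C and T, the TOP (terminal oligopyrimidine) motif, through which mTOR signalling controls their translation.

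Sequence around the annotated start is shown for 8 members because the results turn on them. Rpl27a, Rpl28, Rps28 and Rpl6 varied little, and Rps15a had a steady start and a variable far end. Rps9 and Rpl10a were called in peaks that cover the start, and Rpl5 was called only at its far end. The Rps9 peak covers the whole gene, so its change cannot be placed at the start. Each line gives 70 bases on the gene's strand, 50 before the start and 20 from the start base on, from RefSeq on GRCm38.p6 (mm10). Capitals mark the unbroken run of C and T that holds the start base, or the start base alone.

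Rpl27a, chr7:109519145-109519214, plus strand: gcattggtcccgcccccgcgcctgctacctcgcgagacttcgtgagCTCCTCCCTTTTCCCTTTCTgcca
Rpl28, chr7:4792915-4792984, plus strand: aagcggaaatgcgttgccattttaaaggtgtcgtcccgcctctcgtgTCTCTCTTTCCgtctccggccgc
Rps28, chr17:33824543-33824612, minus strand: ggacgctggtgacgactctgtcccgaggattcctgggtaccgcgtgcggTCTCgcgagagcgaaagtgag
Rpl6, chr5:121204451-121204520, plus strand: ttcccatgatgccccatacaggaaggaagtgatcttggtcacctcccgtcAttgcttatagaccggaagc
Rps15a, chr7:118116128-118116197, minus strand: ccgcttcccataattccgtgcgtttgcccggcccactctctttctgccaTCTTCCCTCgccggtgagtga
Rps9, chr7:3703991-3704060, plus strand: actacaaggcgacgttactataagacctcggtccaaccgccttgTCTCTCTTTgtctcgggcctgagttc
Rpl10a, chr17:28328421-28328490, plus strand: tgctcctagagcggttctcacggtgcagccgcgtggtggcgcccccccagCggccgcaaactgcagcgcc
Rpl5, chr5:107900478-107900547, plus strand: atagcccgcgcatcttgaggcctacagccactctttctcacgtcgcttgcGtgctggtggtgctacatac

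In Rpl27a the run was 20 bases long, in Rpl28 11 bases and in Rps15a and Rps9 9 bases. Of the 79 genes, 60 had an entry in the RefSeq promoter table, and the start of 57 of them lay inside a member peak. A run of C and T of at least 8 bases lay over the start in 14 of the 60 (23.3%), against 3.9% of all 32851 promoters and 3.9% of the 11797 promoters whose start lay in any H3K27ac peak. A C at the start followed by 4 bases of C or T was found in 11 (18.3%), against 2.5% and 2.4%. Both counts depend on the exact annotated start base. In Rpl27a, with its run of 20 bases, that base is a T, so the gene is not among the 11.

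Motifs were searched on both strands over 300 bases, 250 before the start and 50 from the start on. CCGGAAG, the core letters of ETS and GABPA sites, was in 22 of the 60 (36.7%), against 8.9% of all promoters and 19.4% of those with a start in a peak. GGGCGG, the core of the GC box, was in 60.0%, against 35.7% and 61.7%, and TATAAA in 8.3%, against 13.6% and 6.9%. The GR element, searched as ACANNNTGT, was in 1 of the 60, against 6.8% and 4.1%. The STAT element searched as TTCNNNNGAA was in 5, or 8.3%, against 7.0% and 5.6%. AAGATGGC, the core of YY1 sites, was in 5 (8.3%), against 2.7% and 4.9%. CACGTG, the E-box bound by Myc and USF factors, was also in 5 (8.3%), against 7.2% and 10.4%. A match describes letters only. The remaining 19 genes are not included in these counts.

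All 73 core ribosomal protein genes of the list had a member peak. The other 6 genes with one were Rpl22l1, Rpl36al, Rpl3l, Rpl7l1, Rps27l and Rps19bp1. Of the peaks, 57 covered an annotated start, 25 pairs of peak and gene were at the far end, 5 near the start, and for 25 the strand was not listed. A single peak was shared by a pair of neighbouring member genes. Member peaks were 200 to 14949 bp long, with a median of 2415 bp, against 1799 bp for the 11949 peaks at the ends of any named protein-coding gene and 1013 bp for all peaks. Of the 111, 43 also lay within 1 kb of another named gene. Counts were enough for a test at 109, all but short far-end peaks of Rpl31 and Rpl36a. Ribosomal protein genes have many near-identical processed copies in the genome, and how reads with several matches were counted is not stated.

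All 79 genes had their mark spread over a wider range in total than per length. Taking for each gene its peak with the most counts, the mean over the 12 libraries ran from 14.2 to 347 normalised CPM, with a median of 34.2. Normalisation was by trimmed mean of M-values (TMM), which takes the bulk of peaks as unchanged. Per kilobase of peak the range narrowed to 7.34 to 28.7 CPM, with a median of 13.0, and Rpl18 was the highest. By total level the highest were Rps9 (347), which encodes a protein of the small subunit's body, Rpl3 (217), next to the peptidyl transferase centre, Rpl10 (176), which acts in subunit joining, Rpl18 (156), Rpl12 (148), part of the base of the stalk, and Rps27a (95.5), made as a fusion with ubiquitin. The Rpl3 peak lies 90 bp outside its gene. The lowest were Rps19bp1 (14.2), Rps4x (14.3), Rpl27 (14.8) and Rpl22l1 (15.7).

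**Figure D1:**
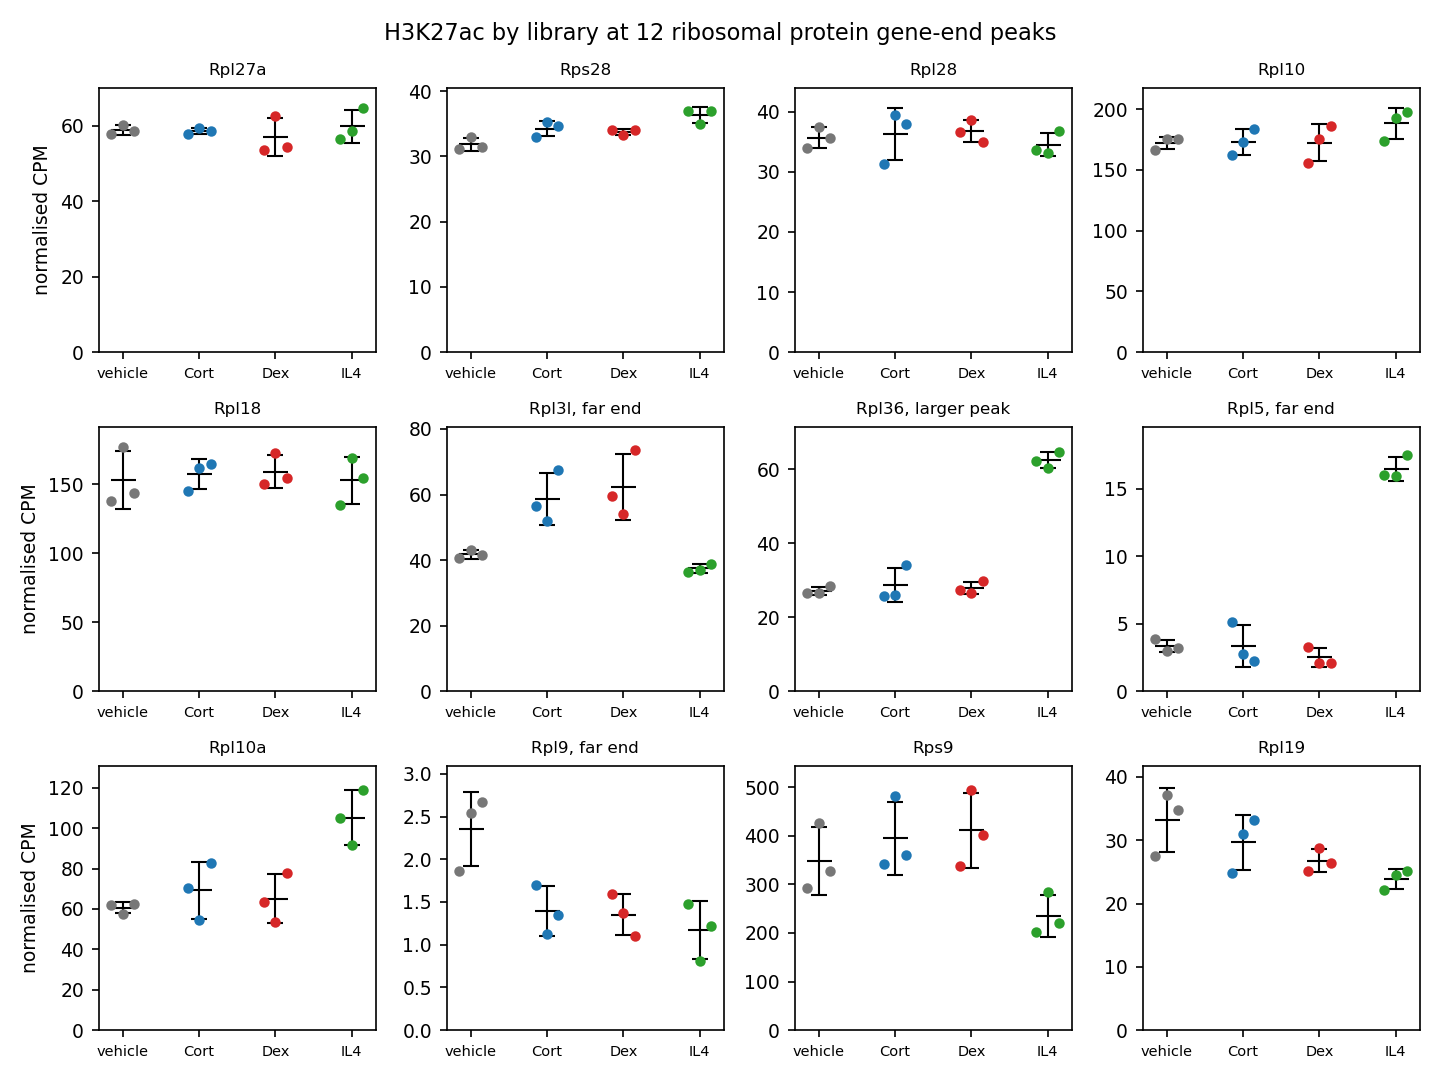
H3K27ac level in TMM-normalised CPM (linear axes from 0) at 12 ribosomal protein peaks, with points for libraries, a dash for the group mean and bars for the SD (n = 3). At the Rpl27a peak the libraries lay between 53.6 and 64.8 CPM, while at the called Rpl36 peak the IL4 libraries (60.4 to 64.7) were apart from the other groups.

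The least variable leading peak was that of Rpl27a (chr7:109517622-109520474), a large-subunit protein. Its levels were 57.8, 60.3 and 58.7 CPM in the vehicle libraries, 57.8, 59.5 and 58.5 with Cort, 53.6, 62.7 and 54.4 with Dex and 56.4, 58.5 and 64.8 with IL4. The groups overlapped, and the coefficient of variation (CV, the SD over the mean) over the 12 libraries was 5.34%. The log2 change against vehicle was -0.01 with Cort (95% interval -0.25 to 0.24), -0.05 with Dex (-0.29 to 0.19) and 0.02 with IL4 (-0.22 to 0.27).

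Rps28, a small-subunit protein at the mRNA exit, had a CV of 5.50% (chr17:33823178-33825905). Its levels were 31.1, 33.0 and 31.4 CPM with vehicle, 33.0, 35.2 and 34.6 with Cort, 34.0, 33.2 and 34.1 with Dex and 37.0, 34.9 and 37.0 with IL4. Every IL4 library was above every vehicle library, and the log2 change of 0.19 (95% interval -0.05 to 0.43) did not pass. The next were Rpl6 (chr5:121204048-121205468, 5.98%), Rps14 (6.70%) and Rpl28 (chr7:4792045-4794136, 6.87%). At Rpl6 the libraries lay between 14.3 and 17.3 CPM and at Rpl28 between 31.3 and 39.5 CPM, with overlapping groups at both.

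The leading peaks with the highest CV were those of Rpl36 (43.4%), Rpl10a (27.8%), Rps9 (26.6%), Rpl3l (24.8%) and Rpl3 (23.1%). The leading Rpl3 peak (chr15:80069691-80077691) lies 90 bp outside the gene. Its levels were 230, 178 and 232 CPM with vehicle and 265, 166 and 299 with Cort. They were 259, 152 and 270 with Dex and 192, 149 and 211 with IL4. The library numbered 2 was the lowest in each group, and the groups overlapped. IL4 was below vehicle in each same-numbered pair, and the change of -0.22 had an adjusted p = 0.556 in the fit used here, against 0.0478 once library number was a block. The second peak (chr15:80078011-80084656), which overlaps the gene and had fewer counts, had a CV of 5.39% at a mean of 86.8 CPM.

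Over all 109 tested members the median CV was 12%, against 18.4% for all gene-end peaks, 14.0% for peaks at mitochondrial ribosomal protein genes and 34.8% for all 59881 tested peaks. For the 57 peaks that cover a start it was 9.94%, with 55 of them under 20%. Peaks of genes whose strand was not listed, among them the variable Rpl36 peak, could not be classed and are not in the 57. Spread depends on depth, so peaks were also set side by side over one range of counts, the middle of the members' own (180 to 508 mean counts), a comparison chosen after the data were seen. There the 55 members had a median CV of 10.8%, 3437 other gene-end peaks 13.7% and 9140 other peaks of any kind 21.4%. The median CV within groups was 8.12% with vehicle, 12.6% with Cort, 10.2% with Dex and 8.22% with IL4.

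**Figure D2:**
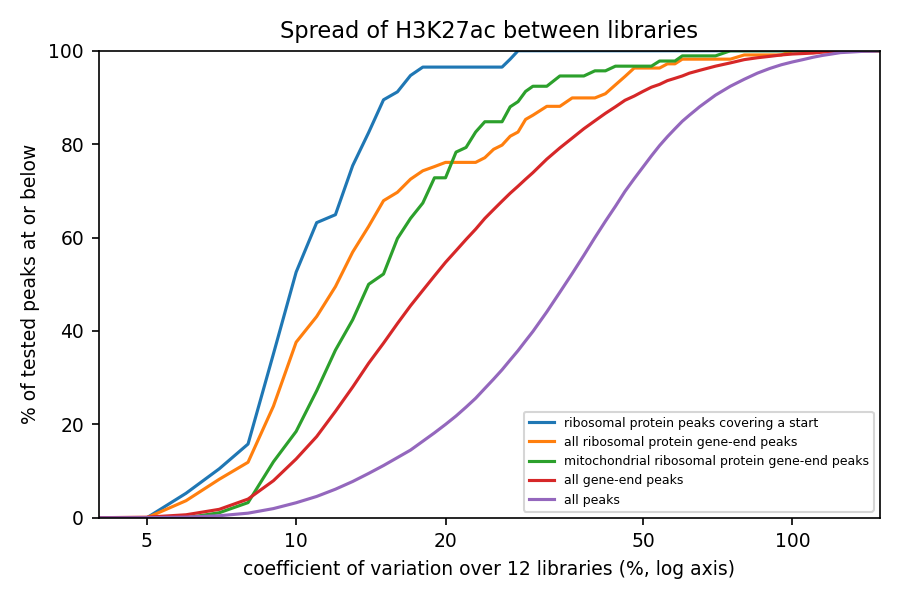
Cumulative share of tested peaks (%) at or below each coefficient of variation over 12 libraries (%, log axis), for ribosomal protein peaks and the comparison sets. The curve reaches the middle of the peaks at 9.94% for ribosomal protein peaks covering a start, 12% for all ribosomal protein peaks and 34.8% for all tested peaks.

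Intervals give the range of change at each peak in the fit without a block, on the TMM scale. They do not include any error of the scaling itself. The 95% interval of the change lay within 1.5-fold in all 3 comparisons at 67 of 109 members (61.5%), against 29.1% of gene-end peaks, 41.3% of mitochondrial ribosomal protein peaks and 8.26% of all peaks. Among the peaks covering a start it did at 47 of 57 (82.5%). With library number as a block it did at 78 members (71.6%). The shares with the block were 42.6% of gene-end peaks, 52.2% of mitochondrial ribosomal protein peaks and 13.9% of all peaks. The values that follow are again without the block. Within 2-fold it lay at 86 members (78.9%) and 56 of the 57 at a start (98.2%), against 64.7% of gene-end peaks and 27.7% of all peaks. At mitochondrial ribosomal protein peaks the share within 2-fold was 82.6%, above that of the members. Interval width also depends on depth. In the range of 180 to 508 mean counts, the share within 2-fold was 96.4% of members, 83% of other gene-end peaks and 58.8% of other peaks of any kind. Within 1.5-fold it was 76.4%, 47% and 24.1% in the same order. Over the leading peaks of the 79 genes, the highest group mean was 1.16 times the lowest at the median, and under 1.25 times at 57 of them.

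Cort was compared with vehicle to see whether the natural hormone altered the mark at these genes. No member of 109 passed edgeR's quasi-likelihood test with Cort (adjusted p under 0.05, Benjamini-Hochberg), against 1.55% of all tested peaks, while 6 had an unadjusted p under 0.05 and DESeq2 called 0. The members' median log2 change was -0.04, against 0.00 for all peaks and 0.06 for gene-end peaks, and it was 0.03 with scaling by low-count peaks. Groups did not overlap at 13 members (11.9%, against 17.2% of all peaks), with Cort above at 5 and below at 8. Changes at peaks covering a start ran from -0.22 to 0.19.

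The smallest p with Cort were at Rpl3l, described with Dex below, and at far ends of Rpl35a, Rpl9 and Rpl24. The far-end peak of Rpl35a, a Diamond-Blackfan anaemia gene, had a log2 change of -1.46 at a mean of 0.635 CPM (adjusted p = 0.221 in edgeR's test), and its main peak one of 0.01. The Rpl24 far-end peak (chr16:55971774-55975987), 1 of 3 at the gene of this intersubunit bridge protein, had a log2 change of 0.32 ± 0.14 (SE, adjusted p = 0.332 in edgeR's test). It lies 337 bp outside Rpl24 and within 1 kb of Zbtb11. The lowest leading peaks were Rpl8 (-0.33 ± 0.15), whose protein contacts the peptidyl transferase centre, Rps27a (-0.28 ± 0.13), and Rps15 and Rpl38 (both -0.22). With the library number as a block, 3 members passed with Cort, at Rpl24, Rpl3l and Rps27a, against 12.6% of all peaks.

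With Dex, 1 member of 109 was called, against 5.24% of all tested peaks. It was a peak at the far end of Rpl3l (chr17:24735511-24739209), the muscle-type paralog of Rpl3, and it also lies within 1 kb of Msrb1, a selenium-dependent methionine sulfoxide reductase. Its levels were 40.6, 43.1 and 41.4 CPM with vehicle, 56.6, 51.9 and 67.4 with Cort, 59.5, 54.1 and 73.5 with Dex and 36.5, 36.9 and 38.9 with IL4. Every Dex and every Cort library was above every vehicle library, and every IL4 library below. The log2 change was 0.58 ± 0.14 with Dex (adjusted p = 0.0308 in edgeR's test) and 0.49 ± 0.14 with Cort (adjusted p = 0.114). With the block the adjusted p was 0.000343 and 0.00322. Without the block, the Dex call was lost without any 1 of the 3 vehicle libraries, without Dex 1 or Dex 3, with scaling by low-count peaks and in a fit of these groups alone.

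Over all members the median log2 change was -0.05, against 0.01 for all peaks, and groups did not overlap at 17 members (15.6%, against 22.8%), with Dex above at 5 and below at 12. At peaks covering a start the changes ran from -0.33 to 0.24. Beside Rpl3l, the highest leading peak was the far-end peak of Rpl24 (0.38 ± 0.14). The lowest were those of Rps4x (-0.33 ± 0.20), Rpl19 (-0.31) and Rps15 (-0.28 ± 0.14). With the block 7 members passed, among them peaks at Rpl24, Rpl3l, Rpl9, Rps15a, Rps27a and Rps9, against 20.3% of all peaks. The Cort and Dex comparisons share the vehicle libraries and differ in dose, so their values stand side by side without a comparison.

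**Figure D3:**
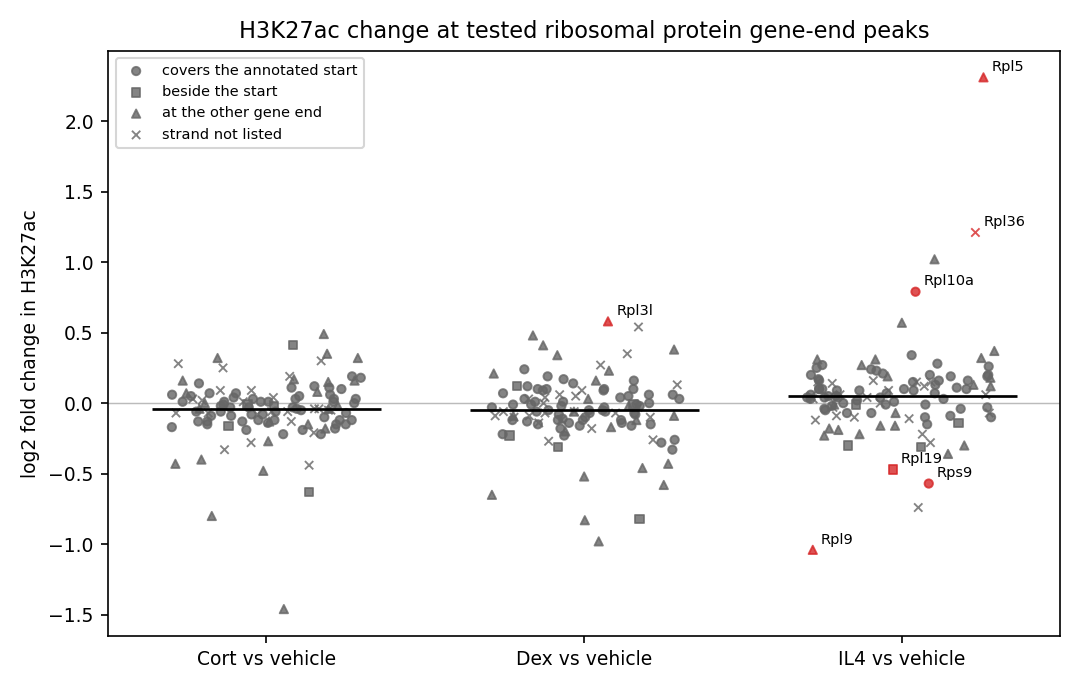
Log2 change against vehicle at each tested ribosomal protein peak, with 1 point per peak, called peaks in red with their gene's name, the marker showing where the peak lies on the gene, and a black line at the median (sideways spread is only for display). The medians lie at -0.04, -0.05 and 0.05, and the IL4 points at the Rpl5 far end (2.31) and at Rpl36 (1.21) are the highest.

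The far-end peak of Rps15a (chr7:118103428-118108153), a small-subunit protein, differed among the 4 groups. Its levels were 28.1, 27.3 and 34.4 CPM with vehicle, 17.9, 23.1 and 25.8 with Cort, 17.7, 22.0 and 17.6 with Dex and 33.9, 25.2 and 38.6 with IL4. Every Cort and Dex library was below every vehicle library, and the IL4 libraries overlapped them. The test across all 4 groups passed (adjusted p = 0.0219), while the Dex change of -0.65 ± 0.19 did not (adjusted p = 0.0727). At the gene's start, the peak (chr7:118113123-118121250) had a log2 change of 0.05 with Cort, 0.10 with Dex and 0.20 with IL4.

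IL4 changed 3 members up and 3 down (14.7% and 12.9% of all tested peaks). Together this was 5.50% of 109 members, against 27.6% of all tested peaks, 17.2% of gene-end peaks and 11 of 92 mitochondrial ribosomal protein peaks. The median log2 change of the members was 0.05, against -0.02 for all peaks. It was -0.02 with scaling by low-count peaks. Groups did not overlap at 23 members (21.1%, against 44.2%), with IL4 above at 15 and below at 8. At peaks covering a start the changes ran from -0.57 to 0.79.

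Rpl5 binds 5S ribosomal RNA with Rpl11 and, outside the ribosome, the p53 regulator Mdm2. Its far-end peak (chr5:107909215-107911183), 210 bp from the gene, had 3.84, 2.95 and 3.23 CPM with vehicle, 5.10, 2.72 and 2.24 with Cort, 3.30, 2.09 and 2.12 with Dex and 16, 15.9 and 17.5 with IL4. The IL4 libraries were apart from all others, and the change was 2.31 ± 0.28 (adjusted p = 7.7e-05 in edgeR's test). At the start, whose sequence is shown above, the level was 22.2 ± 1.22 CPM with vehicle and 23.7 ± 2.08 with IL4 (SD, n = 3 each), a change of 0.10 ± 0.15. Rpl11 had a change of 0.09 ± 0.12 with IL4.

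Rpl36, a large-subunit protein, had its called peak at chr17:56608718-56612790, which also lies within 1 kb of Micos13, a subunit of the mitochondrial MICOS complex. Its levels were 26.4, 26.4 and 28.3 CPM with vehicle, 25.8, 26.1 and 34.1 with Cort, 27.4, 26.5 and 29.7 with Dex and 62.2, 60.4 and 64.7 with IL4. The IL4 libraries were far above all others, with a mean of 62.4 ± 2.18 against 27 ± 1.10 CPM (SD, n = 3 each) and a change of 1.21 ± 0.14 (adjusted p = 4.9e-05 in edgeR's test). The other Rpl36 peak (chr17:56613118-56614772) had a change of 0.04 ± 0.17.

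Rpl10a, whose protein forms the L1 stalk that guides the spent tRNA out, rose in the peak that covers its start (chr17:28326414-28330421). That peak also lies within 1 kb of Fance, a Fanconi anaemia gene. Its levels were 61.9, 57.6 and 62.4 CPM with vehicle, 70.6, 54.4 and 82.6 with Cort, 63.7, 53.8 and 77.9 with Dex and 105, 91.7 and 119 with IL4. The IL4 libraries were above all others, and the change was 0.79 ± 0.17 (adjusted p = 0.00415 in edgeR's test).

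The 3 falls with IL4 were smaller or at a low level. Rps9 lies in a 13470 bp peak (chr7:3702687-3716156) that covers the whole gene and also lies by the inhibitory receptor gene Pirb. That peak had 292, 427 and 327 CPM with vehicle and 341, 481 and 361 with Cort. It had 338, 493 and 401 with Dex and 201, 284 and 221 with IL4. Every IL4 library was below every vehicle library, and the library numbered 2 was the highest in each group. The change was -0.57 ± 0.19 (adjusted p = 0.0422 in edgeR's test).

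Rpl19, a large-subunit protein of an intersubunit bridge, had 27.5, 37.2 and 34.8 CPM with vehicle, 24.8, 31.0 and 33.2 with Cort, 25.1, 28.7 and 26.4 with Dex and 22.1, 24.5 and 25.1 with IL4. That peak (chr11:98022098-98025267) lies inside the gene, 95 bp from the gene's end on the start side. The start in the promoter table (position 98026710) is not in the peak. Within 1 kb of it is also the calcium channel subunit gene Cacnb1. Every IL4 library was below every vehicle library, a change of -0.47 ± 0.16 (adjusted p = 0.0371 in edgeR's test).

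The far-end peak of Rpl9 (chr5:65386932-65387590), 774 bp from the gene and within 1 kb of the co-receptor gene Klb, had 1.86, 2.54 and 2.67 CPM with vehicle and 1.48, 0.810 and 1.22 with IL4. The groups did not overlap, and the change was -1.04 ± 0.31 (adjusted p = 0.0247 in edgeR's test), and that of the start peak was -0.04 ± 0.15. The 3 lower calls were each lost without vehicle 2, without vehicle 3 or without IL4 3. Rpl19 and Rps9 were also lost without IL4 1 and with scaling by low-count peaks, Rpl19 and Rpl9 without IL4 2, and Rps9 without Dex 3. The called Rpl9 and Rps9 peaks have filtered FALSE in the deposited table. The 3 higher calls were kept whichever single library was left out.

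Among all tests against vehicle, 7 peaks of 7 genes were called, and 6 of the 7 had another named gene within 1 kb, as did 41 of all 109 tested members. Of the 7, 2 covered an annotated start, those of Rps9 and Rpl10a. For Rpl36 the strand was not listed, so whether its called peak covers the start is not known. Far-end peaks, 23 of which were tested, had a median of 1.76 CPM and a median CV of 29.3%, and 13 of them were under 700 bp long. With the block 12 members passed with IL4, including all 6 that passed without it, against 43.5% of all peaks.

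Across all 4 groups at once, 6 members passed (5.50%), against 29.3% of all peaks and 17.5% of gene-end peaks: the peaks named above at Rpl10a, Rpl36, Rpl3l, Rpl5, Rps15a and Rps9. Of 68 tested large-subunit peaks 4 passed, and of 42 small-subunit peaks 2, with the shared peak counted in both. With the block 22 passed, against 51.1% of all peaks.

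Of the genes outside the core set, Rpl22l1, a paralog of Rpl22, had a log2 change of 0.07 ± 0.22 with IL4. Rpl36al, a retro-copy relative of Rpl36a, had one of 0.17 ± 0.14, Rpl7l1, a paralog of Rpl7 that acts in the nucleolus, of -0.15 ± 0.14, and Rps27l, a p53-responsive paralog of Rps27, of 0.21 ± 0.14. Rps19bp1, whose protein binds Rps19 and the deacetylase Sirt1, had one of 0.34 ± 0.14 (adjusted p = 0.0965 in edgeR's test, and 0.0444 with the block), the highest leading peak after Rpl36 and Rpl10a. The lowest after Rps9 and Rpl19 was Rps29 (-0.28 ± 0.13), at an adjusted p = 0.123 without the block and 0.0204 with it. With Cort and Dex the values of these 5 genes were -0.12 to 0.12.

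The members' share of all counts in peaks, which bears on their use as a reference for scaling, was 0.413% ± 0.0012 with vehicle, 0.401% ± 0.017 with Cort, 0.401% ± 0.0025 with Dex and 0.41% ± 0.021 with IL4 (SD, n = 3 each), or 26602 to 64768 counts per library. Single libraries ran from 0.389% (Cort 1 and IL4 2) to 0.431% (IL4 3), and the Cort and IL4 libraries overlapped those of vehicle. Every Dex library (0.399% to 0.403%) lay below every vehicle library (0.412% to 0.415%), with p = 0.1 in a two-sided exact permutation test, the smallest that 3 libraries against 3 allow. Library sizes estimated from these peaks alone were 0.913 (Cort 1) to 1.10 (IL4 3) times those from TMM over all peaks, and sizes from other gene-end peaks 0.941 to 1.06 times. Sizes from large-subunit peaks were 0.968 to 1.05 times those from small-subunit peaks. The median member, against its own vehicle mean, ran from -0.14 on the log2 scale (Cort 1) to 0.15 (IL4 3), and the vehicle libraries alone from -0.07 to 0.07.

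**Figure D4:**
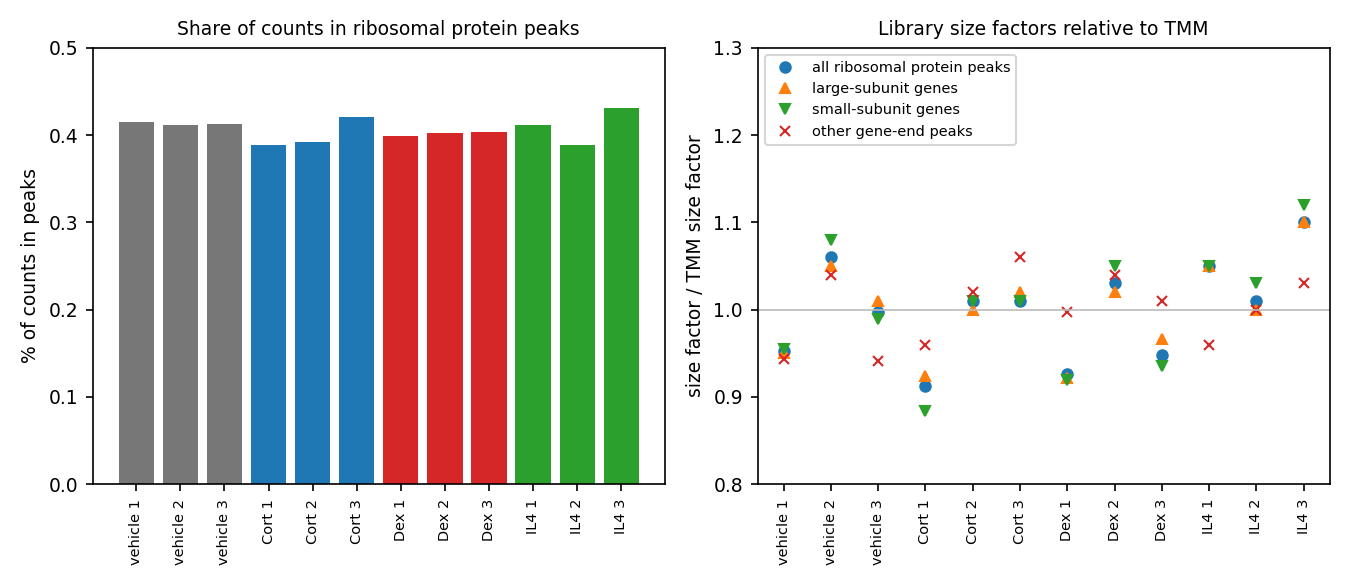
Left, the share of counts in ribosomal protein peaks (% of counts in H3K27ac peaks) in each of 12 libraries, and right, library size factors from 4 peak sets as a ratio to the TMM factor. The share lies between 0.389% and 0.431%, with every Dex library below every vehicle library, and the ratio from ribosomal protein peaks runs from 0.913 in Cort 1 to 1.10 in IL4 3.

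Replacing TMM by these sizes moved the balance of calls over the 59772 peaks that are not members by less than 10 percentage points. With Cort 704 higher and 225 lower (75.8% higher) became 713 and 181 (79.8%). With Dex 1733 and 1404 (55.2%) became 1804 and 1107 (62.0%). With IL4 8824 and 7708 (53.4%) became 7579 and 8645 (46.7%), so that lower calls outnumbered higher ones. By total count the share of higher calls was 63.2%, 45.0% and 48.8% in the same order, and by low-count peaks 88.1%, 63.3% and 48.2%.

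Other genes of the translation machinery were taken from lists chosen with earlier results known. Over all tested peaks 1.55% were called with Cort, 5.24% with Dex and 27.6% with IL4. The stalk and laminin-receptor ribosomal proteins that the symbol rule misses had 6 peaks, with 0 called with any treatment in edgeR's test or DESeq2 and 0 at an unadjusted p under 0.05. Ubiquitin-fused ribosomal proteins and the ribosomal scaffold Rack1 had 8 peaks, of which both tools called 0 and 1 had an unadjusted p under 0.05, with Dex. Of 30 peaks at ribosome biogenesis genes both tools called 0 against vehicle, with 2 at an unadjusted p under 0.05 with Cort, 2 with Dex and 1 with IL4.

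Among all gene-end peaks 2.94% were called with Dex and 17.2% with IL4. Of 26 peaks at elongation factors and other TOP mRNA genes, 1 fell with Dex and 2 rose and 1 fell with IL4. The rises were at Eef1g (0.58 ± 0.11), a subunit of the factor that recharges elongation factor 1A, and at Eef2 (0.55 ± 0.19), which moves the ribosome along the mRNA. A peak at the initiation factor gene Eif3e fell by 2.10 on the log2 scale with Dex and by 1.97 with IL4. Of 21 translation control peaks, IL4 raised Eif4a1 (0.47 ± 0.13), an RNA helicase, and 1 other, and lowered Rps6kb2 (-0.77 ± 0.15), an S6 kinase.

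Of 20 peaks at 13 commonly used reference genes IL4 raised 3 and lowered that of Hprt (-0.45 ± 0.15), of purine salvage. The rises included the transferrin receptor gene Tfrc (1.08 ± 0.14) and the respiratory chain gene Sdha (0.42 ± 0.14). Over all tested peaks IL4 raised 14.7% and lowered 12.9%, and it called 17.2% of gene-end peaks. Of the 92 tested peaks at mitochondrial ribosomal protein genes, IL4 raised 7, with Mrpl15 (2.14 ± 0.21) among them, and lowered 4, with Mrpl27 (-1.34 ± 0.26) among them. These lists had a median CV of 11.1% to 16.5%, against 12% at the members.

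GR peaks touched a larger share of the members, which are longer as given above, than of other peaks. No test was made of this. At least 1 bp of a GR peak touched 18 of 111 members (16.2%), against 6.8% of gene-end peaks and 6.18% of all H3K27ac peaks. These members were at Rpl12, Rpl13a, Rpl3 (both peaks), Rpl30, Rpl32, Rpl3l, Rpl41, Rpl7a, Rpl8, Rps12, Rps15, Rps19bp1, Rps20, Rps25, Rps3, Rps3a1 and Rps9. In all 20 GR peaks touched them, 18 of which had enough counts to test, and at 15 of these the counts differed between the batches.

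At Rpl41 (chr10:128548171-128548343), which encodes a very short basic peptide, the libraries of batch 1 had 44 and 98 reads with vehicle, 62 and 103 with Cort and 75 and 105 with Dex. The batch 2 libraries had 0 to 2 reads each, in every group, and the log2 difference between batches was 7.12 ± 0.59. At Rps15 (chr10:80293700-80293886) batch 1 had 35 to 69 reads and batch 2 had 1 to 5, a difference of 5.20 ± 0.37.

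By a test of batch 1 against batch 2, chosen after the data were seen, 15 of the 18 tested GR peaks at members were higher in batch 1 at an adjusted p under 0.05, against 17.5% of all tested GR peaks. Their median log2 difference was 3.41, against -0.02 for all GR peaks. The 3 that did not pass lay outside ribosomal protein genes, at Rpl3 (chr15:80072064-80072345, -0.08 ± 0.24), Rpl12 (0.40 ± 0.45) and Rpl3l (0.50 ± 0.40). In batch 2 alone only these 3 had enough counts to test, against 18 peaks in batch 1 alone. The other 15 thus entered the test through their counts in batch 1, which favours a higher value there. The test therefore adds no support beyond the counts themselves. Counts in all 20 peaks were 0.024% to 0.0518% of counts in GR peaks in batch 1 and 0.00267% to 0.0055% in batch 2. Of the GR peaks within 1 kb of a member, 26 tested ones overlap a ribosomal protein gene, and 26 of 26 were higher in batch 1, by 2.32 to 7.12. None of the 26 had enough counts to test in batch 2 alone, so the same limit holds. What set the batches apart was not tested.

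**Figure D5:**
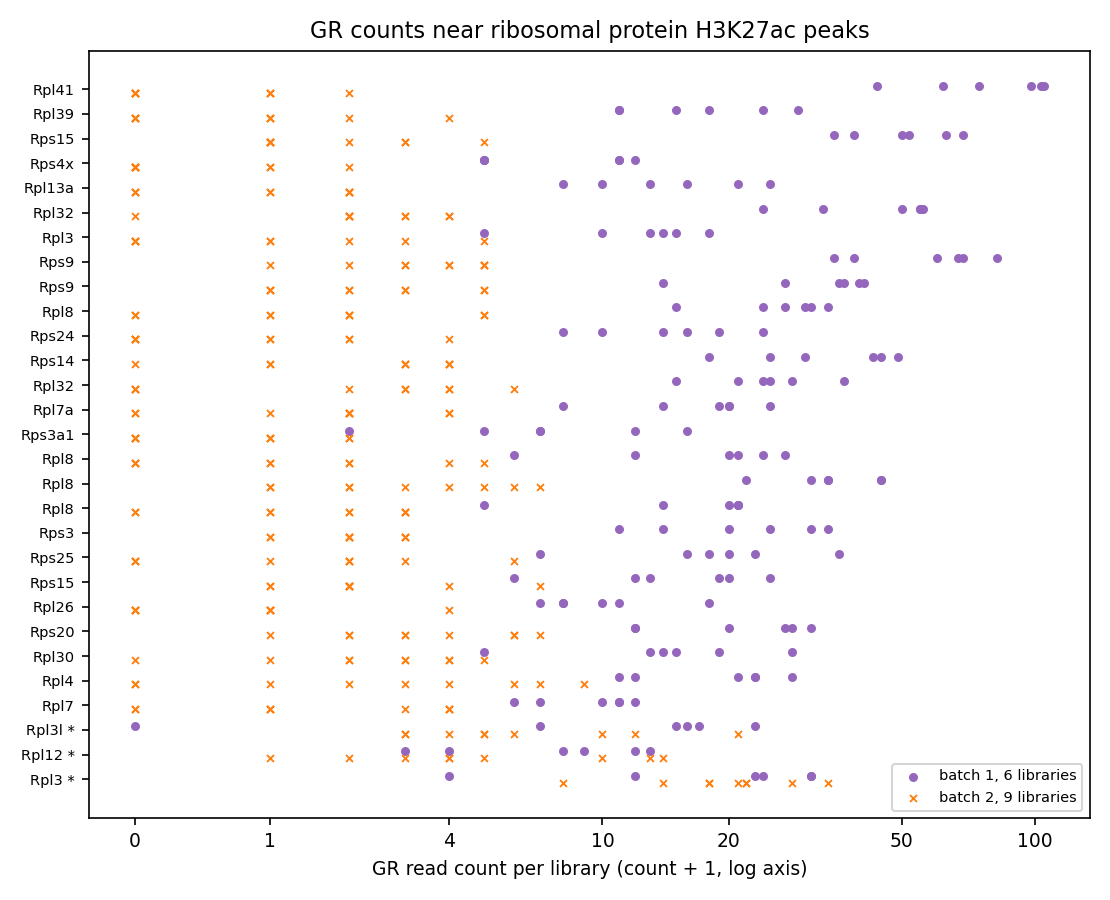
GR reads per library (count plus 1 on a log axis, ticks giving the count) at the 29 tested GR peaks within 1 kb of a ribosomal protein H3K27ac peak, ordered by the difference between batches, with a star for the 3 that lie outside ribosomal protein genes. At Rpl41, at the top, batch 1 libraries had 44 to 105 reads and batch 2 libraries 0 to 2, while at the 3 starred peaks the batches overlapped.

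With batch in the fit, 3 of the 18 GR peaks were lower with Cort, at Rps15, Rps20 and Rps3, against 14.8% of all tested GR peaks lower and 27.6% called either way. With Dex 2 were lower, at Rpl13a and Rps3, against 15.6% and 30.3%. With IL4 0 of 18 were called by edgeR or DESeq2, with 0 at an unadjusted p under 0.05. Over all GR peaks with IL4 edgeR called 0, with 612 at an unadjusted p under 0.05, and DESeq2 called 191. The direction depended on the scaling: by total count 0 were lower and 2 higher, as the median of all GR peaks with Cort moved from 0.17 to 0.96. Within batch 1 alone 7 were lower, within batch 2 alone, where 3 could be tested, 0 were called, and without vehicle 2 the count was 0. No direction of GR binding with treatment is therefore given for these genes. At the Rpl3l peak, which gained the mark with Dex, GR counts had a log2 change of 1.42 ± 0.54 with Cort (adjusted p = 0.0642) and 0.76 ± 0.57 with Dex (adjusted p = 0.334).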

How the data were processed

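The deposited values were raw read counts per peak over one peak set per assay, made by the authors. Per the submitters' processing notes, the tools were featureCounts, MACS2, Bowtie2, fastp and SAMtools, without versions, on mm10. How peaks were merged, and what the files' filtered column means, is not stated. It was TRUE for 77.5% of members and 53.4% of all peaks. Columns headed C were matched to vehicle by elimination. The input library was not analysed here.

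Low-count peaks were dropped with filterByExpr, libraries scaled by TMM, and quasi-likelihood F tests made in edgeR 4.0.16 (R 4.3.3) on all libraries of an assay, with a batch term for GR. Peaks were called where p, adjusted by Benjamini-Hochberg over every tested peak (59881 for H3K27ac, 5183 for GR), was under 0.05. Standard errors are of log2 changes and SDs of CPM. The fit was also run on simulated counts. These were drawn without pairing between libraries, so they cannot test the fit on paired libraries. Strand and promoter sequence came from RefSeq tables for GRCm38.p6. H3K27ac residuals correlated at 0.297 to 0.735 between same-numbered libraries (18 pairs) and at -0.502 to 0.0755 between the others (36 pairs), which was taken as pairing, and the fit shown has no block. GR counts per library were 900063 to 1981582. Members and lists were chosen with earlier results of these data known.

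Named peaks are those called, or else the 4 with the smallest p, the 3 highest and lowest changes per treatment, the highest and lowest levels and CVs among leading peaks, genes outside the core set, peaks touched by GR, and up to 4 genes per list with the smallest p. Rpl11 and the second peaks of a gene were added after their values were seen. Alternatives were other scalings, no count filter, DESeq2 1.42.0, a block, the compared groups alone, leaving out each library, other member rules and, for GR, other batch terms. Batch 1 alone and GR peaks inside ribosomal protein genes were added after the data were seen. Results for some named items are not reported here.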

Additional observations from a re-analysis of the deposited data

Results flagged for a closer look

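Of 63 groups of 4 or more GR libraries checked at peaks near ribosomal protein genes, 3 held a library far from the rest, and chance marks about 1 in 20. At the Rps12 GR peak (chr10:23787294-23787414), vehicle 4 had 1.29 normalised CPM against 6.35 to 7.08 in the other vehicle libraries. At the same peak Cort 4 had 4.5 against 3.24 to 3.45 in the other Cort libraries. At the Rps19bp1 GR peak (chr15:80264912-80265003), Cort 4 had 16.3 against 0.492 to 2.26. Neither peak had enough counts to be tested.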

How the results depend on the processing

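Replicate numbers paired the H3K27ac libraries, and with the replicate block 3 members were called with Cort, 7 with Dex, 12 with IL4 and 22 across the 4 groups, against 0, 1, 6 and 6 without it. For Dex, the count was 0 with scaling by low-count peaks, in a fit of the compared groups alone, at an absolute log2 change of at least 1, at peaks covering a start and at core genes, and 2 with scaling by other gene-end peaks, DESeq2 or peaks with filtered TRUE. For IL4 it was 3 at an absolute log2 change of at least 1 and at peaks that touch a gene end. It was 2 at peaks covering a start and 13 with members to 5 kb. Across the 4 groups it was 2 at peaks covering a start and 11 to 5 kb. Scaling by low-count peaks gave an IL4 median of -0.02 (0.052 in the fit shown) and a median CV of 14.6% (12%), and members to 5 kb a CV of 14.5%. The members' share of counts, 0.406%, was 0.351% for touching peaks, 0.478% to 5 kb, 0.273% at starts, 0.379% for leading peaks and 0.383% for core genes. The 4 GR peaks called became 2 with total-count scaling, 0 without a count filter, without a batch term or in batch 2 alone, 7 in batch 1 alone, 1 without the 1% of GR peaks with most reads, and 9 with DESeq2. Leaving out 1 library gave 0 to 0 calls with Cort, 0 to 2 with Dex, 3 to 6 with IL4, 3 to 7 across the groups and 0 to 9 for GR, with medians of -0.062 to 0.028 (Cort), -0.091 to 0.0041 (Dex) and 0.033 to 0.11 (IL4) and a CV of 11.2% to 12.6%. The causes were not tested.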
